A study of Mus musculus with 40 samples.

Results

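Genes of the extracellular matrix and of cell adhesion were measured in the bone marrow of 20 DBA/2 mice, an inbred laboratory strain, either untreated or given cyclophosphamide. They were chosen by symbol: collagens, laminins and nidogens, matrix glycoproteins and matricellular proteins, proteoglycans, matrix metalloproteinases, the ADAM and ADAMTS families, TIMP inhibitors, lysyl oxidases, integrins and cadherins. Mmp9 and Itga2b were left out of the choice. Of 149 such genes on the array, 38 had values in at least 3 mice of every group and are the members described here, among 5297 genes and unnamed probes tested in all. There were 4 groups of 5 mice: untreated mice, and mice killed 1, 2 or 5 days after an intraperitoneal injection of cyclophosphamide at 83 mg/kg. Every mouse was measured on 2 arrays against a common reference, and n counts mice. The labels call the reference a pool of untreated marrow in one field and name cyclophosphamide treatment in another, which was not settled here; a difference between groups does not depend on it.

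All values are ratios of a mouse to that pool, on a scale taken as log2. No source used here names the log base, and if it were natural, every fold would be larger than stated. A level is the ratio of a mouse to the pool, and a change is a difference between group means with its standard error (SE). Levels of different genes cannot be compared, because each is relative to its own level in the pool. A gene passed, or was called, where its adjusted p was below 0.05 in a limma fit over all 5297 genes and probes with Benjamini-Hochberg adjustment, and every adjusted p below is from it. Whole marrow was sampled, so fewer cells of a type and less RNA per cell cannot be told apart. Between 4079 and 7977 of the 13443 probes had a value on each array, and control mouse 4 had values for the fewest members, 22 of 38.

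Marrow is held together by stromal, bone-forming and endothelial cells that secrete collagens, laminins and proteoglycans, while blood cells bind this matrix and each other through integrins and other receptors. An integrin is a pair of an alpha and a beta chain. Metalloproteinases cut matrix, TIMP proteins inhibit them, and ADAM proteins shed proteins from cell surfaces or, in several members, have lost protease activity. Glypicans and syndecans carry heparan sulphate chains at the cell surface and hold growth factors there. Cyclophosphamide is a DNA cross-linking drug that depletes dividing blood cells.

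Most genes of the choice were poorly measured. No value was present on any array for 54 of the 149, and another 57 had values in too few mice. Of all genes and unnamed probes on the array, 30.1% had no value on any array. The share with values in at least 3 mice of every group was 25.5%, against 40.8% of all named genes. Collagens gave the most members, with 12 of 31 measured, followed by the ADAM family and cadherins with 4 members each, of 26 and 15. Few genes of other matrix proteins were measured: 1 of 12 laminins and nidogens, 2 of 12 glycoproteins and 0 of 3 lysyl oxidases. The type I collagen genes of bone were among the poorly measured, with values in 2 control, 2 day 1, 2 day 2 and 1 day 5 mice for Col1a1 and in 1 control mouse for Col1a2. Sparc, Postn, Lum, Thbs1, Fbln1, Timp3, Mmp8, Itgam, Itga4 and Itga5 had no value at all. Itgb2, the beta chain of leukocyte integrins, had a value in 1 mouse. A blank does not show that a gene was silent, since no source used here states the rule that made values blank, and Itgam and Mmp8 are well known in marrow granulocytes. Itga6, a laminin receptor chain, had values in 2 control, 2 day 1, 5 day 2 and 3 day 5 mice and was not tested.

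**Figure D1:**
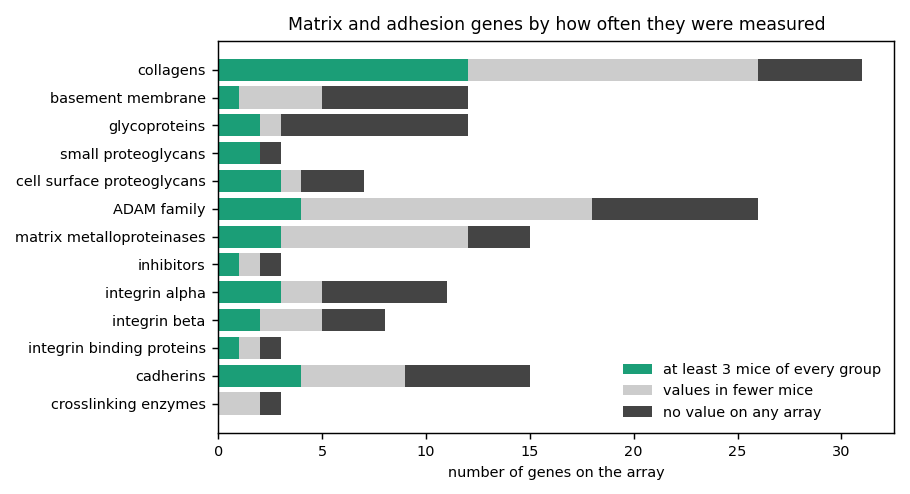
The horizontal bars give the number of genes on the array in each role, split into those with values in at least 3 mice of every group, those with values in fewer mice and those with no value on any array. Collagens, with 12 of 31 genes measured, make up the largest group of members, and no lysyl oxidase reached the required number of mice.

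On day 1, 7 of the 38 members passed (18.4%), beside 19.1% of all genes and probes tested. Of these, 6 were higher (15.8%, beside 10.7% of all) and 1 was lower (2.63%, beside 8.38%). Day 2 had 5 members called (13.2%, beside 19.2%), with 3 higher (7.89%, beside 9.61%) and 2 lower (5.26%, beside 9.61%). On day 5, 2 members were called (5.26%, beside 2.62%), both of them higher (beside 0.906%), and 0 were lower by limma (beside 1.72%). At an unadjusted p under 0.05, 11 members differed on day 1 and 13 on day 2 (28.9% and 34.2%, beside 32.6% and 32.4%), and on day 5, 3 were higher and 0 lower (7.89% and 0%, beside 5.19% and 5.81%). The share of members called on day 1 was near that of all genes, and that on day 2 was below it. The median change of the members was 0.13 on day 1, 0.12 on day 2 and 0.06 on day 5, beside -0.02, -0.02 and 0.01 for all genes and probes. On day 2, 26 of 38 members lay above 0 (68.4%, beside 46.6% of all). The 3 comparisons with control share the same 5 control mice. Against control, 0 members were called at 2-fold or more by limma, beside 0.547%, 1.11% and 0.604% of all on days 1, 2 and 5. With 1 mouse left out at a time, the count on day 1 lay between 3 and 9. It was 3 without control mouse 1 and 4 without control mouse 2, 3, 4 or 5, day 1 mouse 2, 3 or 5, or day 5 mouse 2. On day 2 it lay between 3 and 7, with 3 without day 2 mouse 1, and on day 5 it was 1 without day 5 mouse 3 or 4.

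Between days, 0 members passed for day 2 against day 1 by limma (beside 2.10% of all, with 1.36% higher and 0.736% lower), and 2 had an unadjusted p under 0.05 (5.26%, beside 13.2%); with all 40 arrays and mouse as a random block 1 passed. For day 5 against day 2, 8 passed (21.1%, beside 20.8%), with 4 higher and 4 lower (10.5% each, beside 10.3% and 10.5%). The count for this comparison was 5 without day 5 mouse 3. For day 5 against day 1, 9 passed (23.7%, beside 25.3%), with 2 higher (5.26%, beside 12.2%) and 7 lower (18.4%, beside 13.1%). Across the 4 groups, 9 members differed by the moderated F test (23.7%, beside 30.7% of all). Together, 13 members passed in at least 1 comparison and 25 in none. The matching share of all genes and probes was not counted, so these 13 cannot be called many or few.

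**Figure D2:**
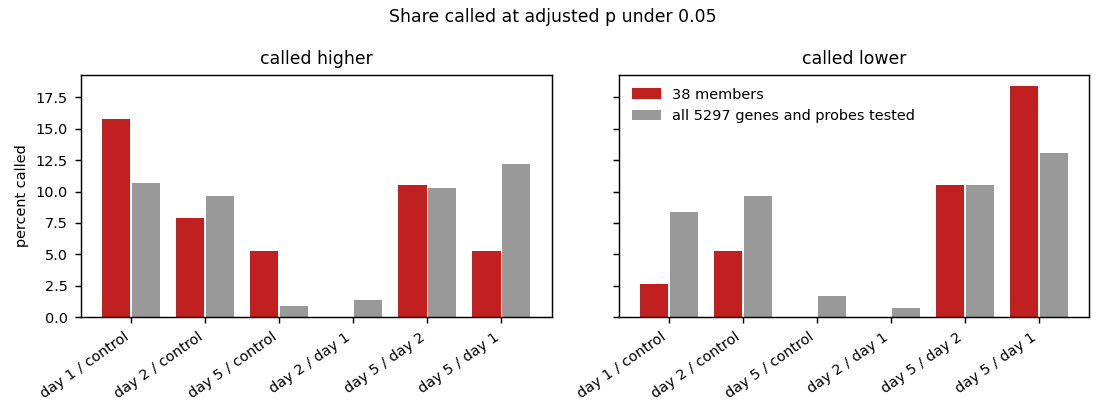
Bars show the percent of the 38 members and of all 5297 genes and probes called higher (left) or lower (right) in each of the 6 comparisons. The members' bars are close to those of the whole array for day 5 against day 2, and above them for rises on day 1 (15.8% and 10.7%) and on day 5 (5.26% and 0.906%, which is 2 genes).

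Promoter sequences are shown for the 3 members that passed in at least 2 comparisons and had a promoter sequence lying outside the gene. The direction of change was not part of this choice, although all 3 were lower on day 5 than on day 2. Col8a1 and Bgn are matrix genes and Itgb1 is a widely used integrin chain. The RefSeq promoter table of build GRCm38.p6 matched 21 of the 38 members, and each sequence covers the 250 bases before the gene start, read 5′ to 3′ along the gene. The window of Itgb2l is not shown, since 50 of its bases lie inside that gene as the RefSeq gene table bounds it. Capitals mark matches, on either strand, to 6 short motifs. The TATA box was searched as TATAAA, which is bound by the TATA-binding protein. The CCAAT box carries its letters in its name. The GC box of Sp1 and related factors was searched as GGGCGG. The site of AP-1 was searched as TGACTCA. Sites of PU.1 and related ETS factors were searched only in the form GAGGAA, and the E-box as CAGGTG. Neighbouring capitals can come from overlapping matches.
Col8a1: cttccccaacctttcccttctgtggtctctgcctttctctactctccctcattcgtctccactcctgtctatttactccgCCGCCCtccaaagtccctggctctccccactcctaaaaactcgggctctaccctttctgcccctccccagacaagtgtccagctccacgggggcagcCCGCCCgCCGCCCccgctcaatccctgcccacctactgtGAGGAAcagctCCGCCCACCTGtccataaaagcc
Bgn: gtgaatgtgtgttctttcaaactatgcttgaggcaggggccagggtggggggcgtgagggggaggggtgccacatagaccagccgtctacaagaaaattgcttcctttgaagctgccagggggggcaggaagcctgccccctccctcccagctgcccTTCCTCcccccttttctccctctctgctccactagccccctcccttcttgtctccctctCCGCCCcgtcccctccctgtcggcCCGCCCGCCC
Itgb1: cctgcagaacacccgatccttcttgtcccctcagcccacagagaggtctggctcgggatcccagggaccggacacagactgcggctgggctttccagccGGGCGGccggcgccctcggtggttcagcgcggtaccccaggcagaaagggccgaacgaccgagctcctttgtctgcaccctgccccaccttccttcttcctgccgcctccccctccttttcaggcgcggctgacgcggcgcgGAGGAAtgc
The windows are chr16:57754738-57754987 on the reverse strand for Col8a1, chrX:73483351-73483600 on the forward strand for Bgn and chr8:128685404-128685653 on the forward strand for Itgb1. The GC box matched at 4 places in Col8a1, 3 in Bgn, of which 2 overlap, and 1 in Itgb1. GAGGAA matched at 1 place each in Col8a1, Bgn and Itgb1, and other forms of ETS sites were not searched. The GC box is in 32.7% and GAGGAA in 23.3% of all 32851 promoter windows of the same length, so both motifs are common. Of the 24 windows of members, 10 hold the GC box and 10 hold GAGGAA. The E-box, found once in Col8a1 and overlapping a GC box there by 1 base, is in 17.2% of all windows. The other motifs, with no match in these 3 windows, are in 12.4% (TATA box), 33.8% (CCAAT box) and 4.5% (AP-1) of all windows. A match is a description of letters and not a binding site.

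The largest change among the members was that of Gpc1, which encodes glypican 1, a heparan sulphate proteoglycan fixed to the cell surface by a lipid anchor. Its levels in the 5 control mice were 0.54, 0.16, 0.10, 0.43 and 0.29. They were 0.08, -0.37, -0.28, -0.05 and -0.06 on day 1, and -0.58, -0.17, -0.37, -0.21 and -0.35 on day 2. On day 5 they were 0.74, 1.43, 0.91, 1.56 and 1.33. Every mouse of days 1 and 2 was therefore below every control mouse, and every day 5 mouse above it. Gpc1 changed by -0.44 ± 0.14 on day 1 (adjusted p = 0.0304) and by -0.64 ± 0.14 on day 2 (1.56-fold, adjusted p = 0.00286). On day 5 it was higher than control by 0.89 ± 0.14 (1.85-fold, adjusted p = 0.000336). The rise from day 2 to day 5 was 1.53 ± 0.14 (2.89-fold, adjusted p = 9.1e-08), and that from day 1 to day 5 was 1.33 ± 0.14 (2.52-fold, adjusted p = 5.52e-07). The 2 arrays of a mouse differed by a median of 0.04 and by at most 0.13 for Gpc1. The call on day 1 was lost without control mouse 1 or 4 or day 1 mouse 2 or 3, at changes of -0.41 to -0.38 and adjusted p between 0.0655 and 0.085. The calls on days 2 and 5 held in all 20 fits that left out a mouse.

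The other measured heparan sulphate carriers did not pass. Sdc1, which encodes syndecan 1, a surface antigen of plasma cells, gave 0.43 ± 0.20 on day 1, 0.53 ± 0.20 on day 2 and -0.01 ± 0.20 on day 5 (adjusted p = 0.138, 0.0684 and 0.995). Control mouse 4 stood at -0.89 for Sdc1, with the next control mouse at -0.13, and without it the changes on days 1 and 2 were 0.26 and 0.35. Gpc6, a glypican of the same family as Gpc1, changed by 0.07 ± 0.11, -0.01 ± 0.11 and -0.04 ± 0.11 over the 3 days. The rise of Gpc1 on day 5 thus had no counterpart of that size in either gene, although differences between genes were not tested.

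**Figure D3:**
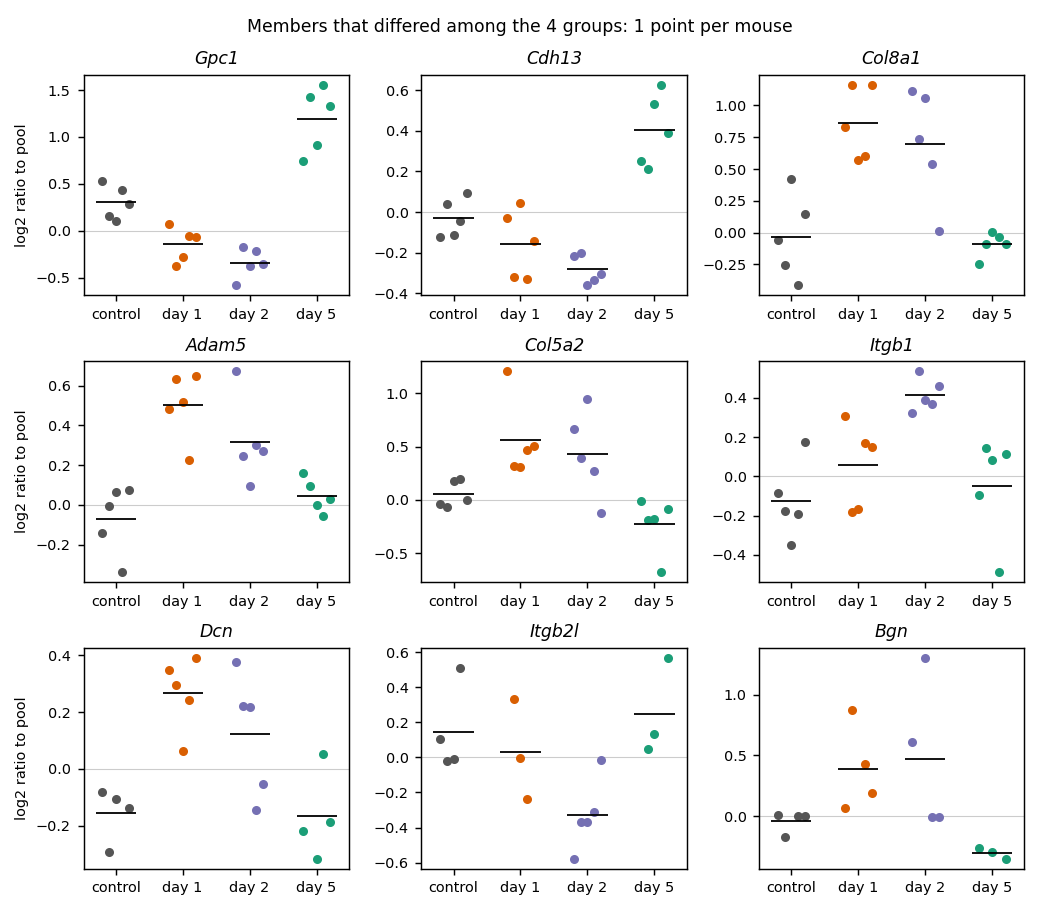
Each panel shows 1 of the 9 members that differed among the 4 groups by the F test, with the log2 ratio to the pool on the vertical axis, 1 point per mouse and a line at the group mean; the vertical scales differ. Gpc1 and Cdh13 are lowest on day 2 and highest on day 5, whereas Col8a1, Adam5, Col5a2, Dcn and Bgn have their higher means on days 1 and 2.

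Among 12 collagen chains, 2 rose on day 1 (Col8a1 and Col5a2) and 1 on day 2 (Col8a1), and 0 passed on day 5 by limma, where 0 also had an unadjusted p under 0.05. Of all genes and probes, 10.7% were higher on day 1 and 9.61% on day 2. With 12 chains, 1 gene more or less decides whether such a count lies above or below that share. On day 5, 2 chains were lower than on day 2 and 3 were lower than on day 1, beside 10.5% and 13.1% of all. Col8a1, a chain of the short network-forming type VIII collagen of vessel walls, had levels of -0.06, -0.25, 0.42, -0.41 and 0.15 in control mice. On day 1 it stood at 0.83, 1.16, 0.57, 0.60 and 1.16, and on day 2 at 1.11, 0.74, 1.05, 0.54 and 0.01. On day 5 the levels were -0.25, -0.09, 0.004, -0.03 and -0.09. All day 1 mice and 4 of 5 day 2 mice were above every control mouse, and day 5 mice lay within the control range. Col8a1 rose by 0.90 ± 0.18 on day 1 (1.86-fold, adjusted p = 0.00188) and by 0.72 ± 0.18 on day 2 (1.65-fold, adjusted p = 0.00682), and was at -0.06 ± 0.18 on day 5 (adjusted p = 0.97). From day 2 to day 5 it changed by -0.79 ± 0.18 (adjusted p = 0.00279), and from day 1 to day 5 by -0.96 ± 0.18 (adjusted p = 0.000418). These 4 calls held in all 20 fits that left out a mouse.

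Col5a2, a chain of type V collagen, which helps start collagen fibrils, stood at -0.04, -0.07, 0.17, 0.20 and 0.001 in control mice. Its day 1 levels were 1.21, 0.32, 0.31, 0.47 and 0.50, all above the controls, and its day 2 levels were 0.66, 0.40, 0.94, 0.28 and -0.12. On day 5 it was at -0.01, -0.19, -0.18, -0.68 and -0.09, with 4 of 5 mice below every control mouse. Col5a2 rose by 0.51 ± 0.18 on day 1 (adjusted p = 0.045) and was at 0.38 ± 0.18 on day 2 (adjusted p = 0.14) and -0.28 ± 0.18 on day 5 (adjusted p = 0.637). The day 1 call rested in part on day 1 mouse 1, without which the change was 0.35 (adjusted p = 0.118). It was also lost without any 1 of the 5 control mice, day 1 mouse 5 or day 5 mouse 2 or 3 (changes of 0.48 to 0.54, adjusted p up to 0.0876). With the second array of each mouse alone the day 1 change was 0.30 (adjusted p = 0.16), and with genes tested from 2 mice per group the adjusted p was 0.0513. The falls to day 5, of -0.66 ± 0.18 from day 2 (adjusted p = 0.00909) and -0.79 ± 0.18 from day 1 (adjusted p = 0.00196), held in all 20.

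Col6a4, a chain of the type VI collagen filaments that link cells to the matrix, was at 0.31 ± 0.12 on day 1 (adjusted p = 0.0774) and did not pass against control. It was lower on day 5 than on day 1, by -0.34 ± 0.11 (adjusted p = 0.0317), with day 1 levels of 0.13, 0.58, 0.54, 0.24 and 0.27 and day 5 levels of 0.12, -0.001, 0.04, -0.03 and -0.08. All day 1 mice were above all day 5 mice, 1 by a small margin. This call was lost without day 1 mouse 2 or 3 or day 5 mouse 2, 4 or 5 (changes of -0.34 to -0.28, adjusted p of 0.0549 to 0.0923). It was also lost with the first array of each mouse alone (-0.23, adjusted p = 0.172) and with all 40 arrays and mouse as a random block (-0.34, adjusted p = 0.0842).

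The other 9 collagen chains did not pass in any of the 6 comparisons. Those of the basement membrane gave changes on day 1 of 0.28 ± 0.12 for Col4a1, -0.17 ± 0.10 for Col4a3, -0.13 ± 0.12 for Col4a4 and -0.03 ± 0.15 for Col18a1, the gene whose product is the source of endostatin. The remaining type V chains were at 0.05 ± 0.10 for Col5a1 and 0.24 ± 0.16 for Col5a3, both below the 0.51 of Col5a2. Col6a2 was at 0.46 ± 0.26 and Col14a1, which binds fibril surfaces, at 0.33 ± 0.16 on day 2 (adjusted p = 0.236 and 0.143). Control mouse 4 was at 0.15 for Col14a1 with the next control mouse at -0.43, and without it Col14a1 passed on day 2 at 0.47 (adjusted p = 0.0334). Col19a1 stayed between -0.17 and 0.10 against control on the 3 days.

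Of the small leucine-rich proteoglycans, which bind collagen fibrils and growth factors, Dcn passed on day 1. Decorin is its product. Dcn was at -0.08, -0.29, -0.11 and -0.14 in 4 control mice and at 0.35, 0.30, 0.06, 0.24 and 0.39 on day 1, so that these groups did not overlap. Day 2 levels were 0.38, 0.22, 0.22, -0.15 and -0.05, and day 5 levels in 4 mice were -0.22, -0.32, 0.05 and -0.19. The change was 0.42 ± 0.12 on day 1 (adjusted p = 0.0156), 0.28 ± 0.12 on day 2 (adjusted p = 0.0994) and -0.01 ± 0.12 on day 5 (adjusted p = 0.988). From day 1 to day 5, Dcn changed by -0.44 ± 0.12 (adjusted p = 0.0087). Both calls held in all 20 fits that left out a mouse, but with the first array of each mouse alone the day 1 change was 0.36 (adjusted p = 0.12), and with all 40 arrays and mouse as a random block it was 0.42 (adjusted p = 0.0511).

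Bgn encodes biglycan, the closest relative of decorin. It was measured in 4 control mice (0.01, -0.17, -0.001 and -0.001), 4 day 1 mice (0.07, 0.87, 0.43 and 0.19), 4 day 2 mice (0.61, 1.30, -0.01 and -0.01) and 3 day 5 mice (-0.27, -0.29 and -0.35). The day 5 mice were below all others measured, while day 2 split into high and low mice. Against control, Bgn did not pass (0.43 ± 0.22, 0.51 ± 0.22 and -0.26 ± 0.24 on days 1, 2 and 5). Day 5 differed from day 2 by -0.78 ± 0.24 (adjusted p = 0.027) and from day 1 by -0.69 ± 0.24 (adjusted p = 0.0408). The first of these was lost without day 2 mouse 1 or 3 (-0.73 and -0.50, adjusted p = 0.0688 and 0.0828) and the second without day 1 mouse 2 or 4 (-0.53 and -0.68, adjusted p = 0.13 and 0.0628).

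Matricellular proteins modulate contacts between cells and matrix without being part of its fibres. Sparcl1 rose by 0.42 ± 0.14 on day 1 (adjusted p = 0.0462), from 0.08, -0.09, -0.20 and -0.09 in 4 control mice to 0.63, 0.28 and 0.15 in 3 day 1 mice, with no overlap. From day 1 to day 5 it changed by -0.43 ± 0.14 (adjusted p = 0.0368). The day 1 call held in 7 of 17 fits that left out a mouse. It was lost without any 1 control mouse, day 1 mouse 5, day 2 mouse 3 or 4, or day 5 mouse 1 or 2 (changes of 0.38 to 0.47, adjusted p of 0.0504 to 0.106), and the second was lost without day 5 mouse 2 or 4 (-0.38 and -0.39, adjusted p = 0.0902 and 0.0827). Quantile normalization ended both calls (0.36 and -0.35, adjusted p = 0.0566 and 0.0589). The first was also lost with all 40 arrays (adjusted p = 0.0523) and with genes tested from 2 mice per group (adjusted p = 0.0513), the second with the second array alone (-0.41, adjusted p = 0.0695). Thbs2, a thrombospondin that inhibits vessel growth, changed by -0.10 ± 0.15, 0.21 ± 0.15 and 0.19 ± 0.15 over the 3 days in 3 mice per group and did not pass. Lamc3, the only measured laminin chain, was at -0.15 ± 0.14, -0.26 ± 0.13 and 0.11 ± 0.13 against control. It was higher on day 5 than on day 2 by 0.37 ± 0.13 (adjusted p = 0.0435), with day 2 levels of -0.41, -0.60, -0.48, -0.09 and -0.44 and day 5 levels of 0.10, -0.06, 0.07 and -0.24 that overlapped. That call held in 8 of 17 fits that left out a mouse. It was lost without control mouse 1 or 5, day 2 mouse 1, 2, 3 or 5, or day 5 mouse 1, 3 or 4 (changes of 0.32 to 0.38, adjusted p of 0.0506 to 0.109). All 40 arrays with mouse as a random block (adjusted p = 0.146), quantile normalization (adjusted p = 0.0909) and robust moderation (adjusted p = 0.0504) also ended it.

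Some markers of stromal and bone-forming cells, endothelial cells and macrophages were called higher on days 1 and 2. Of all genes and probes, 10.7% and 9.61% were higher on those days. Of 4 measured genes in a list of 13 stromal and bone-forming markers, 2 rose on day 1 (Fstl1 and Serping1), 3 on day 2 (also Cxcl12) and 0 on day 5. Alpl, the remaining gene, changed by -0.08 ± 0.12, -0.06 ± 0.12 and -0.19 ± 0.12 over the 3 days. The mean level of this list lay between -0.30 and -0.11 in control mice, 0.34 and 0.65 on day 1, 0.24 and 0.86 on day 2 and -0.52 and -0.15 on day 5. Of 5 measured endothelial markers of 10, which include the member Cdh5, 2 rose on day 1 (Flt1 and Plvap) and 3 on day 2 (also Kdr). Tek (0.038, 0.117 and 0.125 over the 3 days) and Cdh5 did not pass on any day. The mean of that list was between -0.14 and 0.01 in controls, 0.26 and 0.57 on day 1, 0.33 and 0.57 on day 2 and -0.16 and 0.12 on day 5. Of 5 measured macrophage markers of 10, 2 rose on day 1 and 5 on day 2, and their mean level ran from -0.39 to 0.20 in controls, 0.37 to 0.80 on day 1, 0.66 to 1.42 on day 2 and -0.62 to -0.16 on day 5. These lists were thus highest on the days when Col8a1, Col5a2 and Dcn had their higher means. Their part in the changes of the matrix genes was not tested.

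**Figure D4:**
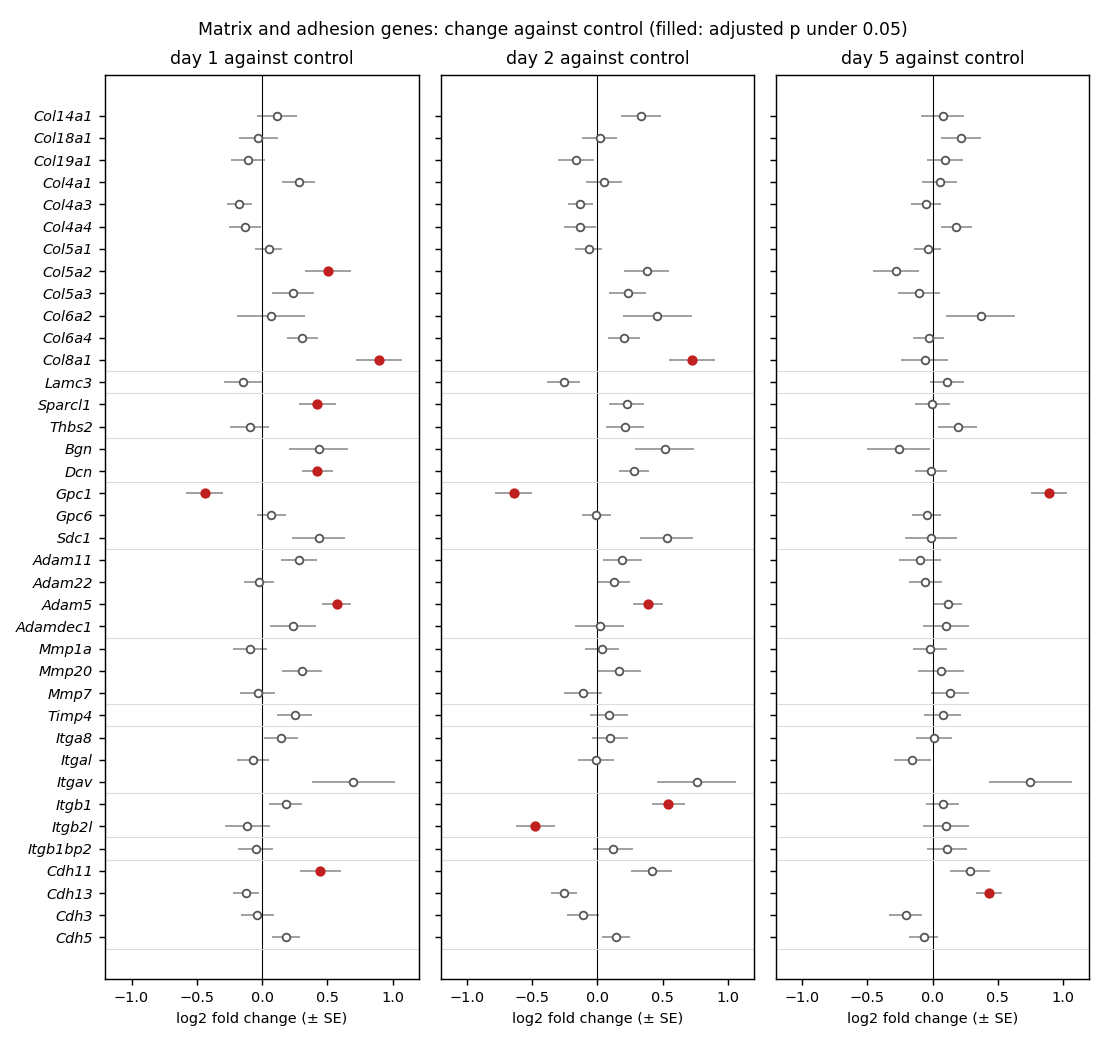
Each row is a member, ordered by role from collagens at the top to cadherins at the bottom, and the 3 panels give its log2 fold change ± SE against control on days 1, 2 and 5. Filled points passed at an adjusted p under 0.05: there are 7 on day 1, 5 on day 2 and 2 on day 5, and most open points lie within 0.5 of 0.

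In the ADAM family 1 of 4 members rose on days 1 and 2, beside 10.7% and 9.61% of all genes and probes. Adam5, known mainly from male germ cells, had control levels of -0.14, -0.004, 0.06, -0.34 and 0.07. They were 0.48, 0.63, 0.52, 0.23 and 0.65 on day 1, 0.67, 0.25, 0.10, 0.30 and 0.27 on day 2, and 0.16, 0.09, -0.002, -0.05 and 0.03 on day 5. All mice of days 1 and 2 were above all control mice. Adam5 rose by 0.57 ± 0.11 on day 1 (1.49-fold, adjusted p = 0.00164) and by 0.39 ± 0.11 on day 2 (adjusted p = 0.0184), and was at 0.12 ± 0.11 on day 5 (adjusted p = 0.855). From day 1 to day 5 it changed by -0.46 ± 0.11 (adjusted p = 0.00441). The day 2 call was lost without control mouse 4 (0.32, adjusted p = 0.0556) or day 2 mouse 1 (0.30, adjusted p = 0.0724). Adam11 and Adam22, which lack protease activity, gave 0.28 ± 0.14 and -0.02 ± 0.12 on day 1, and Adamdec1, a secreted enzyme of macrophages, gave 0.24 ± 0.18.

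The 3 metalloproteinases and the inhibitor among the members did not pass in any of the 6 comparisons. Mmp7 changed by -0.03 ± 0.13, -0.11 ± 0.14 and 0.13 ± 0.14 over the 3 days, and Mmp20, an enzyme of tooth enamel, by 0.30 ± 0.16, 0.17 ± 0.16 and 0.07 ± 0.18. Mmp1a, a collagenase, was at -0.09 ± 0.13, 0.03 ± 0.13 and -0.02 ± 0.13, and its probe may also detect the close copy Mmp1b. Timp4, an inhibitor of these enzymes, was at 0.25 ± 0.13, 0.09 ± 0.14 and 0.08 ± 0.14. Outside the choice, Mmp9, the gelatinase of neutrophil granules, was at 0.07 ± 0.24 and -0.62 ± 0.24 on days 1 and 2 and at -0.98 ± 0.26 on day 5, where it passed (adjusted p = 0.0381, 4 day 5 mice).

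Both measured integrin beta chains passed on day 2, in opposite directions, beside 19.2% of all genes and probes. They are only 2 genes, and the call of Itgb2l was less stable, as given below. Itgb1, the partner of most collagen, laminin and fibronectin receptors, had control levels of -0.09, -0.18, -0.35, -0.19 and 0.18. They were 0.31, -0.18, -0.17, 0.17 and 0.15 on day 1, 0.32, 0.54, 0.39, 0.37 and 0.46 on day 2 and -0.09, 0.14, 0.08, -0.49 and 0.12 on day 5. All day 2 mice were above all mice of the other 3 groups. Itgb1 rose by 0.54 ± 0.13 on day 2 (1.45-fold, adjusted p = 0.00465) and changed by -0.46 ± 0.13 from day 2 to day 5 (adjusted p = 0.0103). It did not pass on day 1 (0.18 ± 0.13, adjusted p = 0.333) or day 5 (0.08 ± 0.13, adjusted p = 0.925). Its 2 arrays differed by a median of 0.04, and both calls held in all 20 fits that left out a mouse. Of 4 measured megakaryocyte and platelet markers of 10, 2 rose on day 2 (Itga2b and Ppbp), beside 9.61% of all genes and probes. Pf4 (0.55 ± 0.27) and Treml1 (0.31 ± 0.15) did not pass on day 2 (adjusted p = 0.158 and 0.157). The mean of this marker list lay between -0.37 and 0.20 in control mice, -0.05 and 0.41 on day 1, 0.25 and 0.96 on day 2 and -0.34 and 0.15 on day 5. It too was highest on day 2, as were the macrophage markers. The list means of the stromal and endothelial markers also had their highest median on day 2 (0.62 and 0.44, beside 0.37 and 0.36 on day 1). The part of any of these lists in the change of Itgb1 was not tested.

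Itgb2l encodes pactolus, a beta chain relative found on mouse neutrophils. It was at 0.11, -0.02, -0.01 and 0.51 in 4 control mice, 0.33, -0.01 and -0.24 in 3 day 1 mice, -0.58, -0.37, -0.37, -0.31 and -0.02 on day 2 and 0.04, 0.13 and 0.56 in 3 day 5 mice. Of the day 2 mice, 4 of 5 were below every control mouse. The change on day 2 was -0.48 ± 0.15 (adjusted p = 0.0356), and the rise from day 2 to day 5 was 0.58 ± 0.17 (adjusted p = 0.0175). The day 2 call held in 8 of 14 fits that left out a mouse and was lost without control mouse 1 or 4 or day 2 mouse 1, 2, 3 or 4, with changes of -0.49 to -0.36 and adjusted p of 0.0512 to 0.125. With the second array of each mouse alone it was -0.30 (adjusted p = 0.234), with the first alone -0.51 (adjusted p = 0.0512), and with all 40 arrays and mouse as a random block -0.46 (adjusted p = 0.104). The rise from day 2 to day 5 was lost with the second array alone (0.40, adjusted p = 0.1) and with all 40 arrays (0.58, adjusted p = 0.056). Of 6 measured neutrophil markers of 12, 4 fell on day 2, beside 9.61% of all genes and probes, and Prtn3 (-0.09 ± 0.24) and Mmp9 did not pass. On day 5 this list split: Prtn3 was higher than control (1.35 ± 0.23), Mmp9 was lower (-0.98 ± 0.26) and the other 4 did not pass. The mean level of that list was between 0.03 and 0.31 in control mice, -0.64 and 0.13 on day 1, -1.57 and -0.87 on day 2 and 0.15 and 0.66 on day 5. Gpc1 and Cdh13 also had their lowest means on day 2 and their highest on day 5, when both passed against control. The part of the neutrophil markers in the changes of these 3 genes was not tested.

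Integrin alpha chains did not pass. Itgav, which pairs with several beta chains to bind vitronectin and fibronectin, gave 0.70 ± 0.32, 0.76 ± 0.30 and 0.75 ± 0.32 on days 1, 2 and 5 (adjusted p = 0.131, 0.0829 and 0.341). Control mouse 4 stood at -2.61, with the next control mouse at -0.82, and without it the changes were 0.22, 0.28 and 0.27. Itgal, the alpha chain of the leukocyte integrin LFA-1, was between -0.16 and -0.01 on the 3 days, and Itga8 between 0.01 and 0.14. The integrin binding protein Itgb1bp2 was at -0.05 ± 0.14, 0.12 ± 0.15 and 0.11 ± 0.15. Itga2b, the platelet integrin chain left out of the choice, rose by 1.00 ± 0.18 on day 2 (adjusted p = 0.00065), with day 2 levels of 0.80 to 1.53 above the control levels of -0.47 to 0.49.

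Cadherins join cells to each other. Of the 4 members, 1 passed on day 1 (Cdh11), 0 on day 2 by limma and 1 on day 5 (Cdh13). Of all genes and probes, 19.1%, 19.2% and 2.62% passed on these days. Cdh13 encodes T-cadherin, which lacks a cytoplasmic tail and is anchored by lipid. Its levels were -0.12, 0.04, -0.11, -0.04 and 0.09 in control mice, -0.03, -0.32, 0.04, -0.33 and -0.14 on day 1, -0.21, -0.20, -0.36, -0.33 and -0.31 on day 2 and 0.25, 0.21, 0.53, 0.63 and 0.39 on day 5. All day 5 mice were above, and all day 2 mice below, every control mouse. Cdh13 rose by 0.43 ± 0.10 on day 5 (1.35-fold, adjusted p = 0.0153), while the values of -0.13 ± 0.10 on day 1 and -0.25 ± 0.10 on day 2 did not pass (adjusted p = 0.401 and 0.0798). From day 2 to day 5 it rose by 0.69 ± 0.10 (1.61-fold, adjusted p = 3.83e-05) and from day 1 to day 5 by 0.56 ± 0.10 (adjusted p = 0.000289). Without day 5 mouse 3 or 4 the call against control was lost (0.40 and 0.38, adjusted p = 0.0545 and 0.0537); the calls between days held in all 20 fits.

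Cdh11, a cadherin of bone-forming and other mesenchymal cells, rose by 0.45 ± 0.15 on day 1 (adjusted p = 0.0454). Its levels were -0.35, -0.33, -0.18 and -0.18 in 4 control mice and -0.39, 0.36, 0.28, 0.23 and 0.45 on day 1, so that 4 of 5 mice were above and 1 was below every control mouse. Day 2 levels were 0.43, 0.01, 0.45, -0.10 and -0.01 (change 0.42 ± 0.15, adjusted p = 0.0622) and day 5 levels -0.06, -0.09, -0.04, 0.38 and -0.09 (change 0.28 ± 0.15, adjusted p = 0.544). Leaving out day 1 mouse 1 gave 0.59 ± 0.13 on day 1 (adjusted p = 0.00319), and Cdh11 then passed on day 2 as well (adjusted p = 0.0226); without day 5 mouse 4 it also passed on day 2 (adjusted p = 0.0448). The day 1 call was lost without any 1 control mouse, day 1 mouse 2, 3, 4 or 5, or day 5 mouse 1, 2 or 3 (changes of 0.38 to 0.47, adjusted p of 0.0501 to 0.115). It was also lost with the second array of each mouse alone (0.42, adjusted p = 0.0964) and with genes tested from 2 mice per group (adjusted p = 0.0513). Cdh5, the cadherin of endothelial junctions, was at 0.18 ± 0.11, 0.14 ± 0.11 and -0.07 ± 0.11, and Cdh3 at -0.04 ± 0.12, -0.11 ± 0.12 and -0.21 ± 0.12. Neither passed.

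A further 86 matrix and adhesion genes outside the symbol choice were listed by role, and 18 of them were measured. Of these, 1 passed on day 1 (lower), 3 on day 2 (1 higher and 2 lower) and 1 on day 5 (higher), beside 19.1%, 19.2% and 2.62% of all genes and probes. The higher gene on both days was Aspn, a small leucine-rich proteoglycan related to decorin, at 0.45 ± 0.15 on day 2 and 0.63 ± 0.17 on day 5 (adjusted p = 0.0482 and 0.0497). Icam2, a ligand of leukocyte integrins, changed by -0.34 ± 0.10 on day 1 (adjusted p = 0.0277). Of 7 measured partners of the integrin tail, of 20 listed, 2 fell on day 2, beside 9.61% of all genes and probes. They were Lims1 (-0.49 ± 0.13) and Parvg (-0.45 ± 0.14), with adjusted p = 0.0118 and 0.0227. The median change of the 18 genes was -0.04, 0.02 and 0.09 on days 1, 2 and 5, beside -0.02, -0.02 and 0.01 for all genes and probes.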

How the data were processed

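The authors deposited 1 value per probe and array, taken here as a log2 ratio of mouse (Cy5) over pool (Cy3); no source used here names the scanner, normalization, log base or rule for blanks. The array medians lie within 0.015 of 0 and 40.7% to 69.7% of probes per array are blank. Directions rest on the dyes in the labels; the lowest correlation between arrays was -0.175. Of 13443 probes, 10032 had 1 symbol in the platform annotation, 170 several and 3241 none; 10028 matched the RefSeq gene table and took its symbols.

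The 2 arrays of a mouse were averaged, then probes of a symbol (36 members had 1 probe, and 2, Cdh5 and Cdh11, had 2 probes). Genes and unnamed probes with values in at least 3 mice of every group entered a limma 3.58.1 fit (R 4.3.3) with 1 mean per group over 20 mice, without pseudocount or imputation; the steps were tested on simulated data. The labels call the 5 mice of a group biological replicates. Their number limits the precision, with a median SE of 0.13. The rule named every member, with the value of each mouse for those passing the F test or any comparison, and up to 6 passing genes of the wider list. For Col6a4, Sparcl1 and Lamc3, which passed, the text gives the mice of some groups only. Members, lists and rules were chosen with earlier results of these data known. Alternatives covered blocks, arrays, blanks, scaling, probes, moderation, weights and left-out mice. Values that look saturated (shared by at least 5 probes of an array within 0.001) touched 0 member values. Figures were drawn with matplotlib.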

Additional observations from a re-analysis of the deposited data

Results flagged for a closer look

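A mouse stood apart from the others of its group, by the gap to its nearest neighbour over the range of the group, in 9 of 120 sets of 4 or 5 mice; chance flags about 1 set in 20. Control mouse 4 was such a mouse for Itgav (-2.61, next -0.82), Sdc1 (-0.89, next -0.13) and Col14a1 (0.15, next -0.43). Day 1 mouse 1 was high for Col5a2 (1.21, next 0.50) and low for Cdh11 (-0.39, next 0.23) and Gpc6 (-0.16, next 0.16). Day 5 mouse 4 was low for Col5a2 (-0.68, next -0.19) and high for Cdh11 (0.38, next -0.04). Control mouse 2 was low for Bgn (-0.17, next -0.001).

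The change after the drug differed between days for several members, by limma's test of the difference between days. From day 2 to day 5 the differences were 1.53 for Gpc1, 0.69 for Cdh13, 0.58 for Itgb2l and 0.37 for Lamc3, and -0.79 for Col8a1, -0.78 for Bgn, -0.66 for Col5a2 and -0.46 for Itgb1. From day 1 to day 5 they were 1.33 for Gpc1 and 0.56 for Cdh13, and -0.96 for Col8a1, -0.79 for Col5a2, -0.69 for Bgn, -0.46 for Adam5, -0.44 for Dcn, -0.43 for Sparcl1 and -0.34 for Col6a4.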

How the results depend on the processing

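No called change of a member against control turned its sign in any of the 32 alternative fits in which it was tested. Weighting mice by quality raised the members called to 15 by the F test, 11 on day 1, 11 on day 2 and 14 for day 5 against day 1, and all genes and probes called to 1891 on day 1 and 366 on day 5. On day 1, 4 members passed with values required in all 5 mice, where 13 members were tested, and 4 with values in at least 2. On day 2, 8 passed with all 40 arrays and mouse as a random block and 8 after quantile normalization; with all 40 arrays, 1 passed for day 2 against day 1 and 210 of all genes on day 5. With 1 mouse left out, members called ranged from 7 to 12 by the F test, 3 to 9 on day 1, 3 to 7 on day 2, 1 to 2 on day 5, 0 to 0 for day 2 against day 1, 5 to 10 for day 5 against day 2 and 6 to 11 for day 5 against day 1. All genes called then ranged from 611 to 1313, 592 to 1123 and 100 to 161 on days 1, 2 and 5. The lowest counts on days 1 and 2 were without day 1 mouse 3 and without day 2 mouse 1. Those fits tested 4989 and 5242 genes and probes, against 5297 in the main fit, where 1012 and 1018 were called. The cause of these and the other shifts was not tested. The mice of the 4 groups share only replicate numbers: over 30 pairs of mice with the same number, the correlation of their deviations from the group means ran from -0.377 to 0.312 (mean 0.026, against -0.007 for different numbers). With the replicate block, members called were 11 by the F test, 6 on day 1, 6 on day 2, 2 on day 5, 0 for day 2 against day 1, 8 for day 5 against day 2 and 9 for day 5 against day 1; Cdh11 on day 1 (0.43, adjusted p = 0.0719) and Lamc3 from day 2 to day 5 (0.36, adjusted p = 0.0667) were lost. Of 20 mice, 10 correlated best with a mouse of their own number, against 4 if all partners were equal, since 3 of the 15 mice in other groups share it; this is a hint from the data, not the design.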
